A study of Mus musculus with 12 samples.

Results

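Clpx and 9 further genes of mitochondrial protein quality control were followed in RNA-seq tables of mouse liver. The 9 further genes were Clpp, Lonp1, Hspd1, Hspe1, Hspa9, Afg3l2, Spg7, Yme1l1 and Trap1, which makes 10 of the 22322 gene symbols in the tables. All 10 were among the 10799 symbols that reached a mean of at least 1 RPKM (reads scaled to transcript length and library depth) in at least 1 group of mice. Each symbol is represented by its most abundant transcript row, by mean RPKM over the 12 samples. Clpx was selected on its measured values, because it came to notice through its genotype by time interaction in these same samples. All differences of Clpx between groups are therefore given as a description, without a test. The other 9 genes were chosen by function, as the partners of Clpx and the main proteases and chaperones of the organelle. Earlier results of these data were known when they were chosen.

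The 12 livers came from 4 groups of 3 mice, labelled as C57BL/6 and 8 weeks old, whose background the study's methods give as C57BL/6J. WT mice were homozygous for a floxed Bmal1 gene (Bmal1 flox/flox), with loxP sites on either side of exon 8. KO mice carried the same floxed gene and a CRE recombinase whose promoter is described only as liver specific, and lacked in the liver the exons for the DNA-binding bHLH domain of BMAL1. Mice of each genotype were killed at circadian time 0 h (CT0) or 12 h (CT12), with food freely available and the last 2 days spent in darkness. No CRE was stated for WT mice, so the effect of CRE itself and that of losing BMAL1 cannot be told apart. BMAL1, encoded by Arntl, pairs with CLOCK to drive transcription in the circadian clock.

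Mitochondria fold, assemble and degrade their proteins with machinery of their own. In the matrix, CLPX is a AAA+ unfoldase that feeds proteins into the chamber of the peptidase CLPP, while LONP1 combines unfoldase and protease in 1 protein. CLPX also acts on ALAS1, the first enzyme of haem synthesis, both in loading its cofactor and in its turnover. HSP60 (Hspd1) and its lid HSP10 (Hspe1) form the folding chamber, mitochondrial HSP70 (Hspa9) pulls in and folds imported proteins, and TRAP1 is the HSP90 of the organelle. In the inner membrane, AFG3L2 and paraplegin (Spg7) form the m-AAA protease facing the matrix, and YME1L1 forms the i-AAA protease facing the intermembrane space.

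The depth recovered from the tables was between 11460000 and 19020000 reads per library. Arntl was at 15.9 ± 0.37 RPKM (SD, n = 3) in WT at CT0, 1.05 ± 0.32 (SD, n = 3) in WT at CT12, 6.37 ± 0.944 (SD, n = 3) in KO at CT0 and 3.99 ± 0.391 (SD, n = 3) in KO at CT12. It was thus lower in KO than in WT at CT0 and higher at CT12. The Arntl row covers a whole transcript, so it does not measure the floxed exon alone. All 6 hepatocyte markers listed were above 0.1 RPKM in every group, and their levels added up to 35680 to 47980 RPKM in WT livers and 23290 to 32090 RPKM in KO livers. This sum is mostly Alb, at 36060 and 30910 RPKM in WT and 19010 and 14870 RPKM in KO (group means at CT0 and CT12), which was the 1 marker of the 6 to pass between genotypes averaged over both times (log2 difference -0.99, adjusted p = 3.64e-05). Summed levels of 5 endothelial markers were 55.3 to 63.4 RPKM in WT at CT0, 36.5 to 38.8 in WT at CT12, 58.8 to 63.9 in KO at CT0 and 30.3 to 63.5 in KO at CT12. Those of 6 stellate and fibroblast markers were 128.2 to 178.0, 94.0 to 110.1, 162.5 to 193.8 and 117.6 to 152.9 RPKM in the same order. The 6 Kupffer cell and macrophage markers added up to 126.7 to 165.4, 79.6 to 120.3, 106.8 to 169.8 and 85.5 to 147.0 RPKM, again in that order, so that this sum too was lower in WT at CT12 than in WT at CT0. The 5 cholangiocyte markers added up to 27.2 to 64.8 RPKM in WT and 88.4 to 152.0 RPKM in KO, a sum that is nearly all Spp1 (group means of 52.1 and 35.5 RPKM in WT and 118.6 and 104.7 RPKM in KO). Krt7 had lower means in KO at both times, and the mean log2 level of the 5 overlapped between genotypes at CT0 and at CT12. The 4 erythroid markers added up to 116.7 to 275.1 RPKM in WT at CT0 and 82.4 to 144.9 in WT at CT12. In KO their sums were 153.2 to 157.1 RPKM at CT0 and 167.7 to 213.6 at CT12. Among them, Alas2 was lower in KO averaged over both times (log2 difference -0.47, adjusted p = 0.0166). Hbb-b1 was higher in KO at CT12, which did not pass (1.06, adjusted p = 0.0764). Whether cell makeup or blood content had a part in the results was not tested. The first KO library at CT0 had the highest levels of several mitochondrial genes, such as 94.99 RPKM for citrate synthase (Cs) against 49.1 and 55.6 RPKM in the other KO livers at CT0. Changes with time and interactions of the chaperones Hspe1 and Hspa9 are given with and without this library. A bulk liver sample cannot tell fewer cells of a type from less RNA per cell.

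Clpx was high in 3 of the 4 groups and low in WT at CT12. Its level was 153.4, 176.0 and 188.0 RPKM in WT at CT0, and 33.3, 31.0 and 38.2 RPKM in WT at CT12. In KO it was 156.3, 206.8 and 212.1 RPKM at CT0, and 186.1, 177.5 and 244.8 RPKM at CT12. The 3 WT livers at CT12 lay below each of the other 9, and the other 3 groups overlapped. The group means were 172.5 ± 17.5, 34.2 ± 3.69, 191.7 ± 30.8 and 202.8 ± 36.6 RPKM (SD, n = 3 each) for WT at CT0, WT at CT12, KO at CT0 and KO at CT12.

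The mean of WT at CT0 was 5.04 times that of WT at CT12, and the lowest liver at CT0 had 4.01 times the level of the highest at CT12. At CT12 the KO mean was 5.93 times the WT mean, and the lowest KO liver had 4.64 times the level of the highest WT liver. At CT0 the KO to WT ratio of means was 1.11, and within KO the CT12 to CT0 ratio was 1.06. As differences of log2(RPKM + 1), CT12 minus CT0 was -2.30 in WT and 0.08 in KO, and KO minus WT was 0.14 at CT0 and 2.52 at CT12. The interaction, which is the change with time in KO minus that in WT, was 2.38. By size it ranked 15 among the 10799 symbols, which describes the value that the gene was chosen for. The 4 differences and the interaction share the same 12 livers. Over 18 alternative settings the interaction stayed between 2.24 and 2.47.

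The row used for Clpx (ENSMUST00000147279 of ENSMUSG00000015357) is short, with 577 exonic bases in 4 exons at chr9:65157959-65166544 on the plus strand of mm9. All of its bases are also part of the 2 other Clpx rows, and no exon of another annotated gene overlaps it. The full-length row ENSMUST00000015501, with 2885 bases in 14 exons at chr9:65142067-65178464, had means of 130.4, 26.7, 145.3 and 146.8 RPKM in WT at CT0, WT at CT12, KO at CT0 and KO at CT12. The third row, ENSMUST00000113824 with 2809 bases, had 130.0, 26.5, 144.7 and 146.1 RPKM. Both longer rows thus showed the low level in WT at CT12, with KO minus WT at CT12 of 2.41 on the log2 scale in each. The rows share reads, so they are not independent measurements. The recovered reads on the full-length row numbered 1242, 1029 and 1126 in the WT livers at CT12 and 5019 to 7589 in the other 9 livers.

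The 250 bases before the RefSeq start of Clpx are shown because this start opens the transcript whose level differed between the groups. They lie at chr9:65294010-65294259 of GRCm38.p6, plus strand, and match 1 place on chromosome 9 of mm9, chr9:65141817-65142066, which ends directly before the first base of the full-length row. Capitals mark CACGTT, a variant of the E-box (CACGTG) that CLOCK and BMAL1 bind, which begins 101 bases before the start.
Clpx: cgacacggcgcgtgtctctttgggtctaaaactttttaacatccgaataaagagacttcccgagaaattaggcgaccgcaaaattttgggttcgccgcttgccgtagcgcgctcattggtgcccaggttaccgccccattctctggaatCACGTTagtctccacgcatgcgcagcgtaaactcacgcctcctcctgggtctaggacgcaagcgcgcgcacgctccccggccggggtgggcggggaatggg

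Motifs were searched on both strands of the 250 bases before 32851 RefSeq starts, among which 8 of the 10 genes had an entry. CACGTT was in 3.85% of all these promoters and, among the 8 genes, in that of Clpx alone. CACGTG was in 6.02% of all promoters and in those of Hspd1 and Lonp1. The D-box TTATGTAA, in 0.819% of promoters, was in none of the 8. AGGTCA, the half-site that ROR and REV-ERB receptors bind, was in 14.0% of promoters and in those of Hspd1, Hspe1 and Trap1. A match describes the letters and is no evidence of binding.

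**Figure D1:**
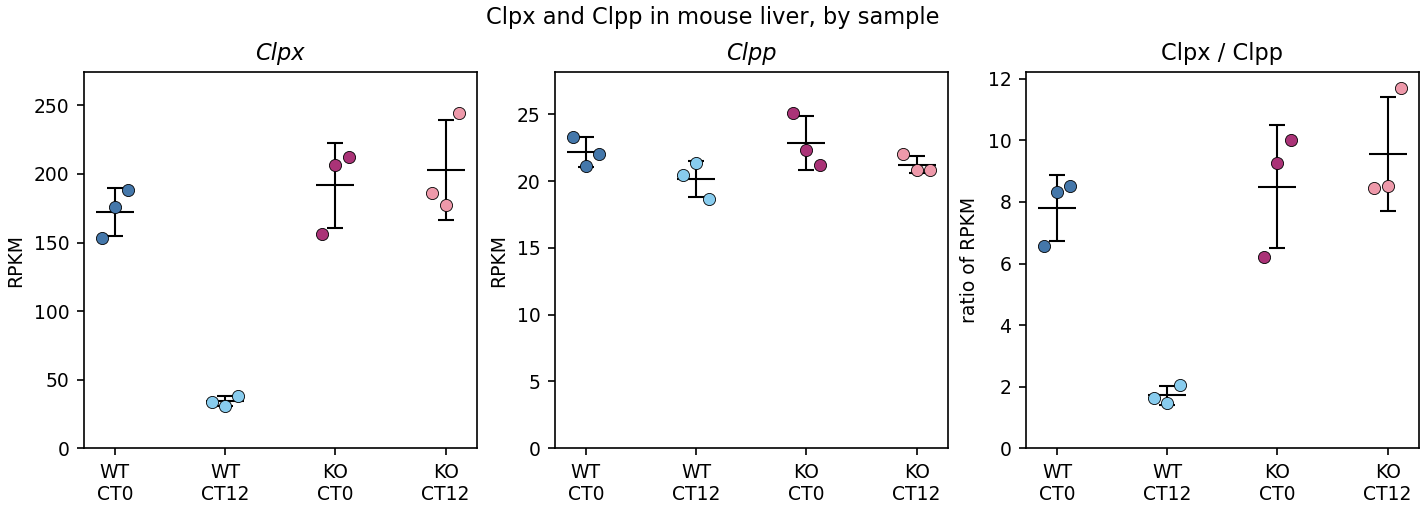
RPKM of Clpx (left) and Clpp (middle) and the ratio of Clpx to Clpp (right) in each of the 12 livers, with 1 point per mouse, the group mean as a horizontal line and the SD as error bars. Clpx averaged 172.5 RPKM in WT at CT0 and 34.2 RPKM in WT at CT12, and Clpp lay between 18.7 and 25.1 RPKM in all 12 livers.

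The partner protease did not follow Clpx. Clpp was at 23.3, 21.1 and 22.1 RPKM in WT at CT0, 20.4, 21.3 and 18.7 in WT at CT12, 25.1, 22.3 and 21.2 in KO at CT0, and 22.0, 20.8 and 20.9 in KO at CT12. All 4 groups overlapped with at least 1 other, and the highest liver had 1.35 times the level of the lowest, against 7.89 times for Clpx. KO minus WT at CT12 was 0.07 on the log2 scale, with a 95% interval from -0.12 to 0.26 (adjusted p = 0.657, limma on log2(RPKM + 1) with Benjamini-Hochberg adjustment over all 10799 symbols, as for all adjusted p-values here). The ratio of Clpx to Clpp transcript levels per length was accordingly 7.81 ± 1.1, 1.71 ± 0.31, 8.51 ± 2.0 and 9.57 ± 1.9 (SD, n = 3 each) in WT at CT0, WT at CT12, KO at CT0 and KO at CT12.

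Lonp1, the other soluble matrix protease, was the steadiest of the 10 genes. It was at 39.5, 40.4 and 38.3 RPKM in WT at CT0, 39.6, 37.3 and 37.3 in WT at CT12, 41.8, 40.4 and 41.0 in KO at CT0, and 40.2, 41.8 and 45.5 in KO at CT12. The highest liver had 1.22 times the level of the lowest. At CT12 all 3 KO livers were above all 3 WT livers, but the difference of 0.16 on the log2 scale did not pass the test (95% interval -0.0042 to 0.31, adjusted p = 0.213). At CT0 the KO livers were also all above the WT livers, by 0.06, which did not pass either (adjusted p = 0.785).

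Hspd1 and Hspe1, which encode the HSP60 chamber and its HSP10 lid, stand head to head on chromosome 1. Of their annotated rows used here, 107 bases lie between the starts. Hspd1 was at 145.0, 153.4 and 138.0 RPKM in WT at CT0, 203.9, 162.1 and 182.6 in WT at CT12, 175.9, 139.5 and 161.2 in KO at CT0, and 150.9, 161.9 and 166.3 in KO at CT12. The 3 WT livers at CT12 were above the 3 at CT0, by 0.32 on the log2 scale (95% interval 0.09 to 0.55, adjusted p = 0.071), and the KO groups overlapped. The interaction of -0.31 did not pass the test (95% interval -0.64 to 0.02, adjusted p = 0.433). A change with time that differs between genotypes was thus not shown. The Hspd1 difference with time in WT passed the threshold without the second WT library at CT12 (0.41, adjusted p = 0.0439) and under quantile normalization (0.35, adjusted p = 0.0208).

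Hspe1 was at 96.7, 90.6 and 82.4 RPKM in WT at CT0, 120.3, 88.8 and 104.4 in WT at CT12, 130.5, 92.6 and 104.5 in KO at CT0, and 81.8, 80.5 and 94.9 in KO at CT12. CT12 minus CT0 was 0.21 on the log2 scale in WT and -0.33 in KO, and the groups overlapped in both genotypes. The interaction of -0.54 (95% interval -0.97 to -0.11) did not pass the test (adjusted p = 0.264). Without the first KO library at CT0, which held the highest Hspe1 value, the interaction was -0.41 (adjusted p = 0.402) and the difference within KO -0.20. The Hspe1 row shares 112 exonic bases with Hspd1 transcripts on the opposite strand and has 4 annotated pseudogenes by name, and the library kit does not mark strand, so its reads cannot be assigned to it with certainty.

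A stretch of 30 bases between these starts is shown because it lies upstream of the rows used for both genes. Their levels are compared from mouse to mouse further on. The 2 other Hspd1 rows start further out, at base 55145087 on the minus strand of mm9, and span the stretch. This stretch was read from RefSeq at chr1:55088051-55088080 of GRCm38.p6, plus strand. The 250 bases around it match 1 place on chromosome 1 of mm9, where it is at chr1:55144895-55144924. Capitals mark 2 overlapping matches, 1 on each strand, to the heat shock element searched here (TTCNNGAANNTTC), which was in 0.466% of all promoters and, among the 8 genes with an entry, in those of Hspd1 and Hspe1.
Hspe1: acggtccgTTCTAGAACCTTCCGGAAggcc

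Hspa9, the mitochondrial HSP70, was at 145.9, 149.5 and 143.3 RPKM in WT at CT0 and 188.9, 162.9 and 169.6 in WT at CT12. In KO it was at 179.0, 159.1 and 158.4 RPKM at CT0 and 166.8, 162.2 and 160.3 at CT12. At CT0 the KO livers were all above the WT livers, with or without the first KO library. With all livers that difference was 0.175 on the log2 scale (adjusted p = 0.354). The WT groups did not overlap with each other, and the KO groups did. CT12 minus CT0 was 0.24 on the log2 scale in WT (adjusted p = 0.0712) and -0.02 in KO. The interaction of -0.26 did not pass the test (adjusted p = 0.37). Under quantile normalization the difference in WT passed (0.28, adjusted p = 0.0241), and without the first KO library at CT0 it was still 0.24 (adjusted p = 0.0503). Trap1, the HSP90 of the matrix, was at 63.6 to 70.3 RPKM in WT at CT0, 64.8 to 74.7 in WT at CT12, 64.3 to 71.8 in KO at CT0 and 66.5 to 79.1 in KO at CT12. All 4 Trap1 groups overlapped, and 54 bases of the row are shared with Dnase1 on the opposite strand.

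Afg3l2, a subunit of the m-AAA protease, was the 1 gene of the 9 that passed the test in any comparison. With time in WT this count of 1 of 9 was near the 11.6% of all symbols that passed. Afg3l2 was at 14.6, 15.3 and 15.4 RPKM in WT at CT0, and 20.3, 20.5 and 19.1 RPKM in WT at CT12. In KO it was at 17.0, 16.1 and 16.7 RPKM at CT0, and 16.4, 17.8 and 19.3 RPKM at CT12. The 3 WT livers at CT12 were above the 3 at CT0, and the KO groups overlapped. At CT0 the 3 KO livers were above the 3 WT livers, by 0.13 on the log2 scale, which did not pass (adjusted p = 0.511). Afg3l2 rose by 0.38 ± 0.08 (SE) on the log2 scale from CT0 to CT12 in WT (95% interval 0.21 to 0.55, adjusted p = 0.0104). The rise passed the threshold in all 18 alternative settings, with differences of 0.36 to 0.42 and, in the 17 that adjusted p, adjusted p-values of 0.00271 to 0.0374. In KO the difference was 0.09 (adjusted p = 0.545), but the interaction of -0.29 was not past the threshold (95% interval -0.53 to -0.04, adjusted p = 0.314), so the change with time was not shown to differ between genotypes. Averaged over both genotypes, Afg3l2 was 0.24 higher at CT12 (adjusted p = 0.0147).

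Spg7, the partner of Afg3l2 in the m-AAA protease, was at 15.2 to 18.7 RPKM in WT at CT0, 16.1 to 18.9 in WT at CT12, 15.0 to 18.6 in KO at CT0 and 14.6 to 17.9 in KO at CT12. All 4 groups overlapped, and KO minus WT at CT12 was -0.06 on the log2 scale (95% interval -0.31 to 0.19, adjusted p = 0.797). The row used for Spg7 has 809 bases and carried 156 to 272 reads per library, the fewest of the 10 genes. Its other rows, not tested one by one, had KO minus WT at CT12 of 0.027 to 0.164. In WT, CT12 minus CT0 was -0.236 to -0.092 in those rows and 0.005 in the row used. Yme1l1, the i-AAA protease, was at 31.6 to 32.1 RPKM in WT at CT0, 29.1 to 35.0 in WT at CT12, 32.3 to 33.8 in KO at CT0 and 32.9 to 37.4 in KO at CT12. The Yme1l1 groups overlapped at CT12, and the difference there was 0.17 on the log2 scale (95% interval -0.02 to 0.35, adjusted p = 0.257). At CT0 the KO livers were all above the WT livers, by 0.04, which did not pass the test (adjusted p = 0.874).

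**Figure D2:**
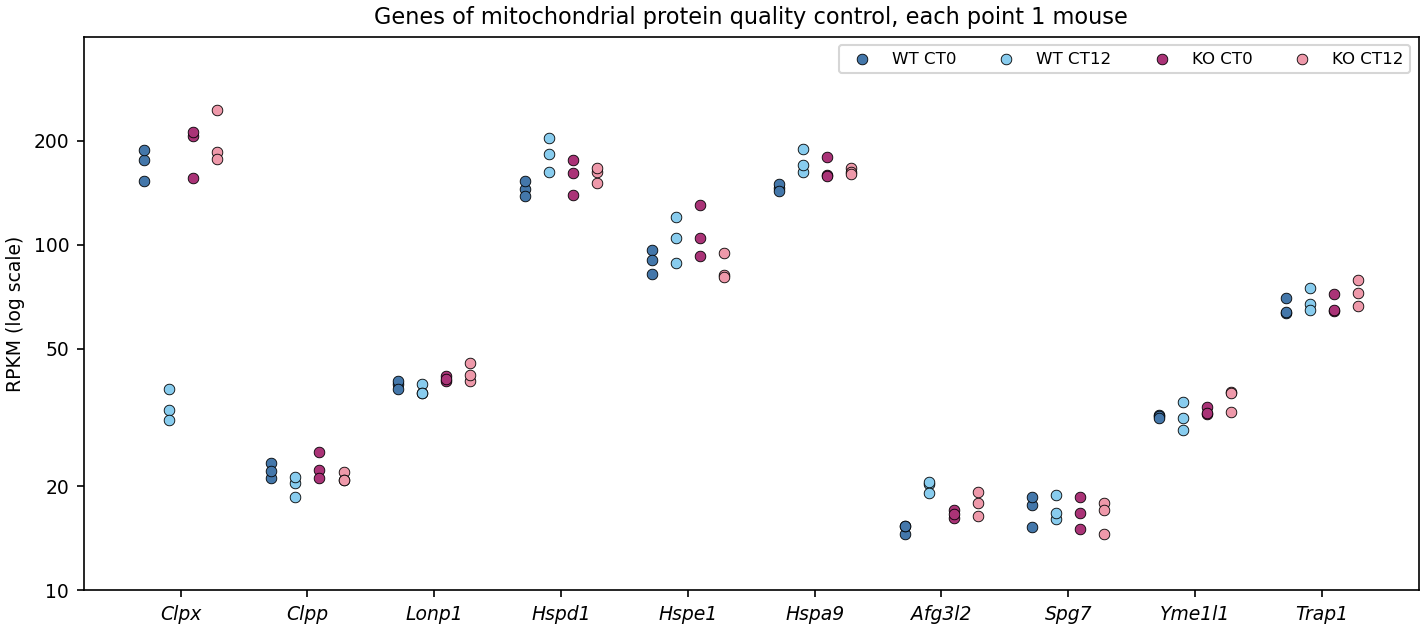
RPKM on a log scale of the 10 genes in each of the 12 livers, with 1 point per mouse and colours for the 4 groups. The 3 WT livers at CT12 stand apart for Clpx, at 31.0 to 38.2 RPKM, and the 12 livers of each other gene lie within a range of 1.22 to 1.62 times.

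Per length and by the rows used, Clpx was the most abundant of the 10 transcripts in 3 groups and ranked sixth in WT at CT12. This order depends on the short Clpx row. The full-length Clpx row, at means of 130.4, 26.7, 145.3 and 146.8 RPKM, was below the Hspa9 and Hspd1 means in all 4 groups and below Yme1l1 (31.9 RPKM) in WT at CT12. By the rows used, the order in WT at CT0 was Clpx, Hspa9, Hspd1, Hspe1, Trap1, Lonp1, Yme1l1, Clpp, Spg7 and Afg3l2. In this group Hspa9 overlapped with Hspd1 and Spg7 with Afg3l2. The place of Spg7 also depends on its row, as its longest row averaged 12.67 RPKM there, below Afg3l2 at 15.1 RPKM. In WT at CT12 Hspd1 led with 182.8 ± 20.9 RPKM (SD, n = 3), and Clpx overlapped with Lonp1 above it and Yme1l1 below it. By the short row, Clpx overlapped with Hspa9 in KO at CT0 and lay above it without overlap in KO at CT12. Among all 10799 symbols the Clpx level was at percentile 96.2 in WT at CT0, 86.3 in WT at CT12, 96.5 in KO at CT0 and 96.9 in KO at CT12.

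Between genotypes, the 9 genes other than Clpx gave 0 calls. Averaged over both times, 0 of 9 passed, against 11.5% of all symbols tested, and 0 had an unadjusted limma p under 0.05, against 25.4% of all symbols. At CT0 0 of 9 passed against 1.86% of all symbols (unadjusted, 0 of 9 against 14.2%). At CT12 0 of 9 passed against 10.5% (unadjusted, 0 of 9 against 24.9%). The 95% intervals of the 9 differences at CT12 ran from -0.58 to 0.35 on the log2 scale, and their median was -0.06 against 0.08 for all symbols.

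With time, 1 of the 9 genes passed in WT, Afg3l2, near the 11.6% of all symbols (unadjusted, 3 of 9 against 26.9%). Averaged over both genotypes 1 of 9 passed, again Afg3l2, against 16.6%. Within KO 0 of 9 passed against 2.43% of all symbols (unadjusted, 1 of 9 against 19.9%). For the interaction 0 of 9 passed against 1.49% (unadjusted, 3 of 9 against 12.3%), and the 3 with an unadjusted p under 0.05 were Hspe1, Afg3l2 and Hspa9. In these 3 genes the interaction was negative, at -0.54, -0.29 and -0.26 on the log2 scale. It was also negative in Hspd1 (-0.31) and Spg7 (-0.03). In Clpp (0.03), Lonp1 (0.10), Yme1l1 (0.12) and Trap1 (0.05) it was positive, the sign of Clpx. Without the first KO library at CT0, the interaction of Hspa9 was -0.21 (adjusted p = 0.504).

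**Figure D3:**
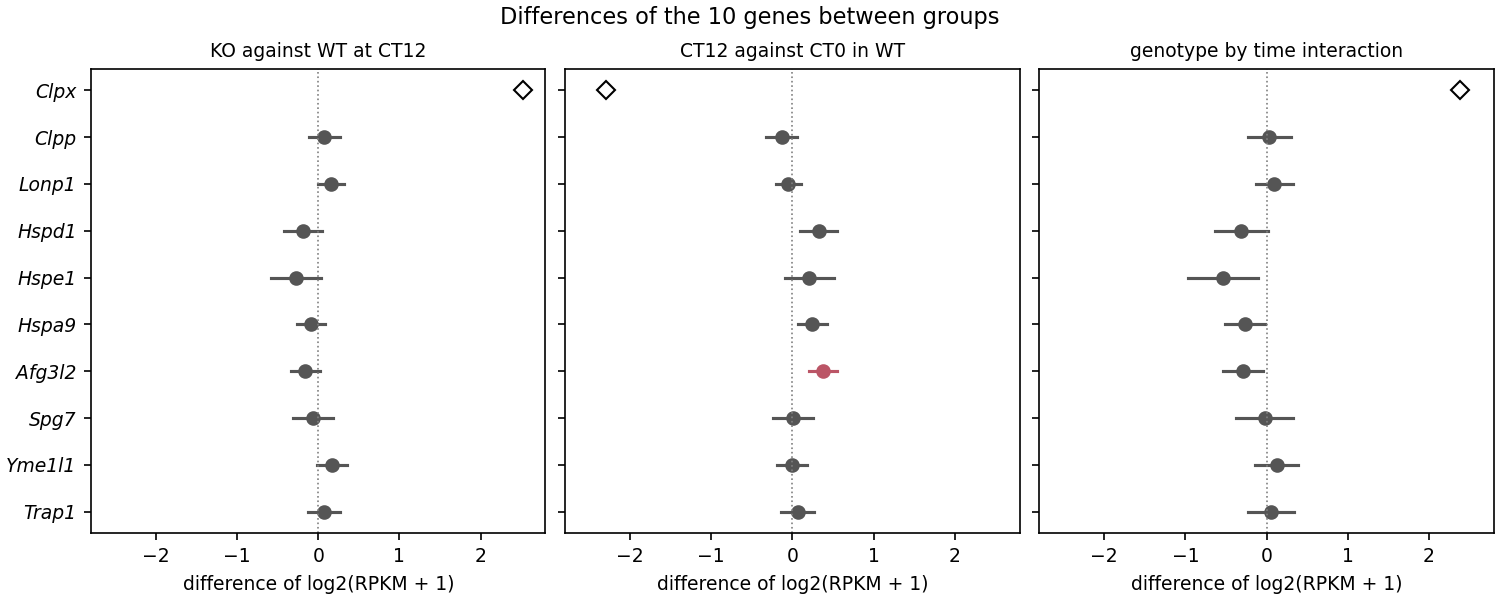
Differences of log2(RPKM + 1) for the 10 genes in 3 comparisons, with points for the estimates and lines for their 95% intervals. Red marks an adjusted p under 0.05 (Afg3l2 with time in WT), and the open diamonds are Clpx, at 2.52, -2.30 and 2.38, given without interval because the gene was selected on these values.

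Partners were also compared from mouse to mouse, as deviations of log2(RPKM + 1) from the mean of each group. Hspd1 and Hspe1 deviated together, with Pearson's r = 0.901 over 12 livers (p = 0.00926, two-sided exact permutation within groups over 1296 pairings; adjusted over 3 relations p = 0.0243) and Spearman's rho = 0.846 (adjusted permutation p = 0.0463). Without the 2 livers farthest from the median of Hspd1, r was 0.821. Both genes were highest in the first library of WT at CT12 and of KO at CT0 within those groups. So were other mitochondrial genes such as Phb, Uqcrc1 and Atp5b, though Mdh2 was so only in KO at CT0. Other pairs were not correlated in this way, so the relation is not shown to be particular to Hspd1 and Hspe1. Clpx and Clpp deviated in opposite directions, with r = -0.764 (exact permutation p = 0.0162, adjusted p = 0.0243) and -0.763 without the 2 farthest livers, but rho = -0.692 missed the threshold (exact permutation p = 0.0386, adjusted p = 0.0579). For Afg3l2 and Spg7 r was -0.002 and rho 0.084 (exact permutation adjusted p = 0.996 and 0.831). Both genes of a pair came from the same libraries and the same scaling to depth. The Hspe1 row also shares 112 exonic bases with Hspd1 transcripts, though not with the Hspd1 row used, in libraries that do not mark strand. The part of these in the relations was not tested. The ratio of Hspd1 to Hspe1 was 1.62 ± 0.11, 1.76 ± 0.066, 1.47 ± 0.10 and 1.87 ± 0.13 (SD, n = 3 each) in WT at CT0, WT at CT12, KO at CT0 and KO at CT12.

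**Figure D4:**
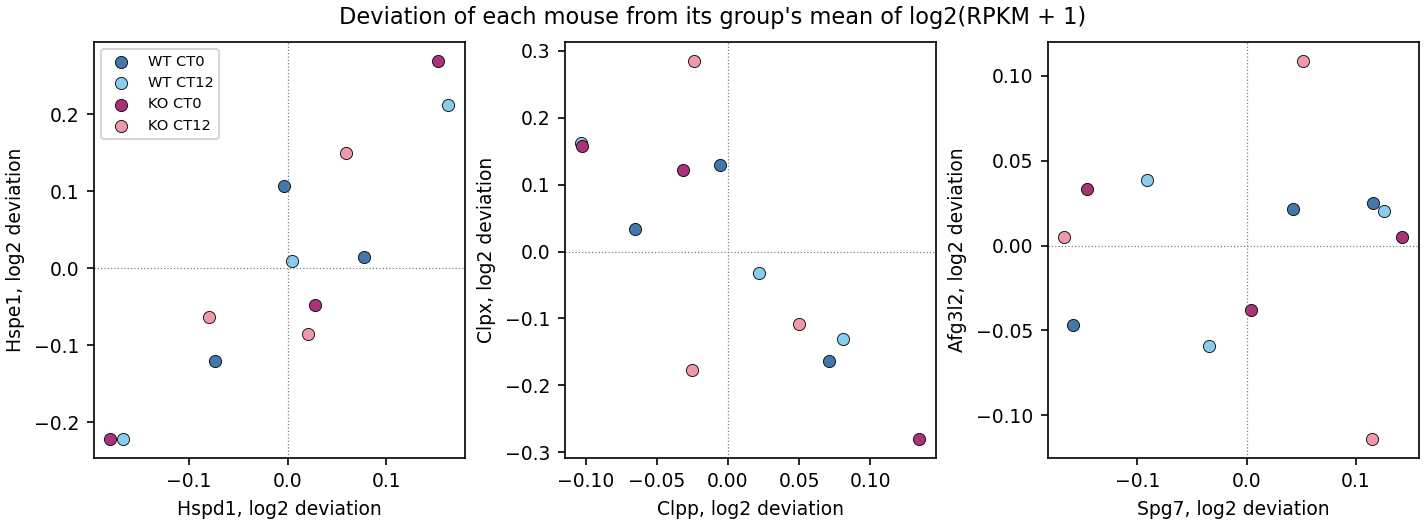
Deviation of each of the 12 livers from the mean of its group, in log2(RPKM + 1), for Hspd1 and Hspe1 (left), Clpp and Clpx (middle) and Spg7 and Afg3l2 (right), with 1 point per mouse and colours for the groups. Points rise together on the left (r = 0.901), run downward in the middle (r = -0.764) and show no slope on the right (r = -0.002).

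Outside the 10 genes, the levels most like those of Clpx over the 12 livers were those of Insig2, which encodes an ER protein that retains SREBP precursors (Pearson's r of log2(RPKM + 1) = 0.987), Gldc of the glycine cleavage system in mitochondria (0.982), the receptor phosphatase Ptprk (0.978), Hsd3b7 of bile acid synthesis (0.974) and the gap junction gene Gjb1 (0.972). The most opposite were the liver glycogen synthase Gys2 (-0.977), the protease Pcsk4 (-0.977) and the growth factor gene Nrg4 (-0.965). These r describe 12 points in 4 groups from shared libraries and were picked as extremes among all symbols. Insig2 was at 182.7 ± 19.1, 20.2 ± 7.21, 249.1 ± 31.7 and 205.6 ± 67.4 RPKM, and Gys2 at 47.2 ± 4.55, 144.9 ± 10.8, 45.5 ± 8.08 and 38.7 ± 3.69 RPKM (SD, n = 3 each), in WT at CT0, WT at CT12, KO at CT0 and KO at CT12. Both thus set WT at CT12 apart from the other 3 groups, Insig2 downward like Clpx and Gys2 upward.

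In a list of 14 genes of the mitochondrial stress response, of which 9 were tested, 1 passed for KO against WT at CT12, near the 10.5% of all symbols. It was Atf5, which encodes a transcription factor of the mitochondrial unfolded protein response. Atf5 was at 45.2, 40.0 and 55.0 RPKM in WT at CT0, 12.5, 15.3 and 16.9 in WT at CT12, 59.7, 37.0 and 39.9 in KO at CT0, and 53.9, 48.3 and 42.1 in KO at CT12. As for Clpx, the 3 WT livers at CT12 were below the other 9 and the other groups overlapped. Atf5 fell by 1.58 ± 0.18 (SE) on the log2 scale from CT0 to CT12 in WT (adjusted p = 0.000214) and was 1.63 ± 0.18 (SE) higher in KO than in WT at CT12 (adjusted p = 0.000134). Its interaction was 1.69 (95% interval 1.13 to 2.25, adjusted p = 0.00705), and without the filter on low values 1.69 with adjusted p = 0.0572. In KO the difference with time was 0.10 (adjusted p = 0.803).

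In WT, 3 of these 9 genes passed with time, against 11.6% of all symbols. Besides Atf5, Cebpb, a stress and acute phase transcription factor, rose by 0.96 (adjusted p = 0.00873) from 4.55 ± 0.0856 to 9.83 ± 0.432 RPKM (SD, n = 3 each). The stress hormone gene Gdf15 fell by 0.81 (adjusted p = 0.0311) from 1.43 ± 0.81 to 0.332 ± 0.157 RPKM (SD, n = 3 each). The Gdf15 call was lost without the second (adjusted p = 0.0989) WT library at CT0 or the third (0.107), without the first at CT12 (0.1) or the third (0.083), and also without the filter (0.0968) and under quantile normalization (0.076). Atf4, a transcription factor of the integrated stress response, was at 29.95 ± 1.33 RPKM in WT at CT12 and 35.5 ± 3.79 to 37.8 ± 7.78 RPKM (SD, n = 3 each) in the other groups. The list had a median difference of 0.25 at CT12 between genotypes against 0.08 for all symbols.

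In the list of 11 haem genes, all tested, 2 passed with time in WT, against 11.6% of all symbols. Alas1, the rate-limiting step of haem synthesis and a client of CLPX, was at 45.9, 37.2 and 25.0 RPKM in WT at CT0, 659.0, 379.6 and 678.7 in WT at CT12, 81.9, 44.8 and 28.2 in KO at CT0, and 386.2, 225.4 and 182.5 in KO at CT12. The CT12 livers of each genotype were all above its CT0 livers, by 3.95 ± 0.39 (SE) on the log2 scale in WT (adjusted p = 6.01e-05) and 2.39 ± 0.39 (SE) in KO (adjusted p = 0.0117). In WT, Alas1 was thus highest in the group in which Clpx was lowest, and in KO it rose while Clpx levels at CT0 and CT12 overlapped. KO minus WT at CT12 was -1.14 (adjusted p = 0.0853), which passed without the first KO library at CT0 (-1.14, adjusted p = 0.0429) or the first at CT12 (-1.44, adjusted p = 0.049). The KO call with time was lost without the filter (adjusted p = 0.0805). Hmox1, which breaks haem down, fell by 0.71 in WT (adjusted p = 0.00597). The KO livers showed this fall too, with a Hmox1 difference between CT12 and CT0 of -0.74 that passed the test (adjusted p = 0.0198). The Hmox1 interaction of -0.03 did not pass (adjusted p = 0.969).

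Between genotypes at CT12, 4 of the 11 haem genes passed, 2 higher and 2 lower in KO, against 10.5% of all symbols. Uros rose by 0.54 (adjusted p = 0.019) and Hmox1 by 0.47 (adjusted p = 0.0465), while Blvrb, a biliverdin reductase, fell by 0.49 (adjusted p = 0.006) and ferrochelatase (Fech), the last step of haem synthesis, fell by 0.31 (adjusted p = 0.0292). Of these calls, that of Blvrb held without any 1 library. The Uros call was lost without the second (adjusted p = 0.0528) or the third (0.0787) WT library or the second (0.0608) or the third (0.0725) KO library at CT12, and without the filter (0.0583). The Fech call was lost without any 1 WT library at CT12 (0.0748, 0.0804 and 0.069) or without the first (0.0897) or second (0.0993) KO library at CT12. The Hmox1 call was lost in 9 of 12 fits that left out 1 library, with adjusted p up to 0.172, without the filter (0.127) and under quantile normalization (0.0626), and held only without the first WT library at CT12 or the first or second KO library at CT0.

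**Figure D5:**
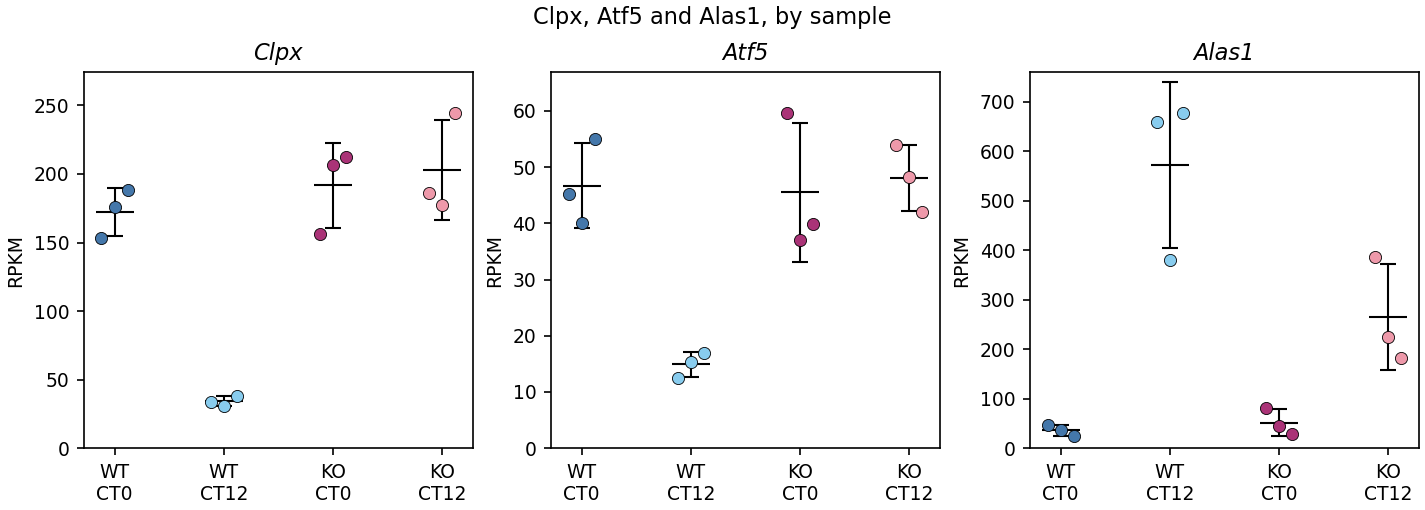
RPKM of Clpx, Atf5 and Alas1 in each of the 12 livers, with 1 point per mouse, the group mean as a horizontal line and the SD as error bars. In WT at CT12, Clpx (34.2 RPKM) and Atf5 (14.9 RPKM) are at their lowest and Alas1 (572.4 RPKM) at its highest, and Alas1 rises with time in KO too, to 264.7 RPKM.

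Of 18 further mitochondrial proteases, processing peptidases and scaffolds, all tested, 0 passed between genotypes at CT12 against 10.5% of all symbols (3 of 18 at an unadjusted limma p under 0.05, against 24.9%), with a median of 0.07. With time in WT 1 of 18 passed against 11.6% of all symbols, Nln (neurolysin), which rose by 0.33 (adjusted p = 0.0211). Of 16 tested partners of mitochondrial HSP70 and import proteins, 0 passed between genotypes at CT12 against the same 10.5% (5 of 16 at an unadjusted limma p under 0.05, against 24.9%), with a median of 0.02. With time in WT 1 of 16 passed against 11.6%, the import channel Tomm40, which rose by 0.44 (adjusted p = 0.0248). The Nln call was lost in 5 of the 12 fits that left out 1 library, those without any 1 WT library at CT0 or without the first or the third at CT12 (adjusted p up to 0.0741). The Tomm40 call was lost in 5 of 12, those without any 1 WT library at CT0 or without the first or second at CT12 (adjusted p up to 0.0826), and also without the filter (0.0586).

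Of 10 genes taken as a gauge of mitochondrial mass, all tested, 1 passed between genotypes at CT12, citrate synthase (Cs), which rose by 0.64 (adjusted p = 0.0477). This count was near the 10.5% of all symbols. Its level at CT12 was 28.8, 33.2 and 28.9 RPKM in WT and 44.8, 49.8 and 48.2 RPKM in KO. The Cs call was lost in 10 of the 12 fits that left out 1 library (adjusted p up to 0.136), and held only without the first or second KO library at CT0. It was also lost without the filter (0.17) and under quantile normalization (0.0541). The median of the 10 was -0.04 against 0.08 for all symbols. With time in WT 0 of 10 passed against 11.6% of all symbols (1 of 10 at an unadjusted limma p under 0.05, against 26.9%).

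Of 11 tested cytosolic heat shock chaperones and their regulator, 3 passed with time in WT, all higher at CT12, against 11.6% of all symbols. Hspa8 rose by 1.06 (adjusted p = 0.0255), its co-chaperone Dnaja1 by 0.75 (adjusted p = 0.0369) and the inducible Hspa1b by 0.87 (adjusted p = 0.0169), the last at 0.667 ± 0.191 and 2.03 ± 0.256 RPKM (SD, n = 3 each). Each call was lost without the second or the third WT library at CT0 or the first at CT12, that of Hspa8 also without the third at CT12, and that of Dnaja1 without the second or the third at CT12, with adjusted p up to 0.0922 for Hspa8, 0.125 for Dnaja1 and 0.0626 for Hspa1b. All 3 calls were also lost without the filter on low values (adjusted p = 0.109, 0.137 and 0.0675). Hspa1b has a near-identical neighbour, Hspa1a, so its reads are uncertain. Between genotypes at CT12 1 of 11 passed against 10.5% of all symbols, the small heat shock protein gene Hspb1, which fell by 1.24 (adjusted p = 0.0156). That call was lost without the first (adjusted p = 0.0599) or second (0.0538) WT library or the first KO library (0.0561) at CT12, and without the filter (0.0871). Hspb1 was also lower in KO at CT0, by 1.87 (adjusted p = 0.00681), and averaged over both times, by 1.55 (adjusted p = 0.000367).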

How the data were processed

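Liver RNA of 12 mice was sequenced by the authors from TruSeq RNA libraries, 3 mice in each of 4 groups read from the sample titles. The treatment note names a smaller number of mice per group than the titles, which were followed. Titles give CT and descriptions ZT for the same times. The authors deposited 1 table per sample of RPKM values for 46585 Ensembl transcripts, with replicates kept apart. The submitters' processing notes name the build mm9, TopHat2 and bedtools 2.19.1. The counting rule, the treatment of reads shared by transcripts and the annotation release are not given in the sources used here. RPKM values are not counts.

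Depth was recovered from the deposited RPKM values with transcript lengths from GENCODE vM1, as 96.4% to 96.9% of low values were whole reads within 0.1, and the procedure was tested on simulated data. Replicates correlated at r = 0.979 to 0.9894 across symbols, and no pair was near identical. P-values measure the spread between the mice sampled.

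A model of the 4 group means of log2(RPKM + 1), which understates changes of low genes, was fitted in limma 3.58.1 (R 4.3.3, eBayes with trend, Benjamini-Hochberg adjustment, threshold 0.05), using the 12 samples together and the 10799 symbols whose mean reached 1 RPKM in a group. Simulated genotype differences of 0.5 and 1 on this scale, averaged over both times, were recovered in 71% and 98% of cases over 10799 genes. The noise was normal, and only genes that were not low were changed. Recovery at 1 time and for the interaction, where SEs are larger, was not simulated. For Afg3l2 the SE was 0.0564 averaged over both times, 0.0797 at 1 time and 0.1127 for the interaction. Alternatives were a pseudocount of 0.1, no filter, quantile normalization, the mean of all rows of a symbol, a replicate block, an unmoderated model with unadjusted p, and leaving out each sample. Tables were handled in Python 3.11.15 with pandas 2.3.3, scipy 1.17.1 and matplotlib 3.10.9. Promoter sequences came from RefSeq (GRCm38.p6) and were matched to the mm9 genome.

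Named were the 10 genes, all Clpx rows, Arntl, Cs as the value that sets the first KO library at CT0 apart, the 5 highest and 3 lowest correlations with Clpx, and up to 4 passing members of each list with the largest differences. Atf4, Phb, Uqcrc1, Atp5b and Mdh2 were named after their values were seen. The members and lists were chosen with earlier results of these data known. A gene of the mitochondrial mass list is not reported here.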

Additional observations from a re-analysis of the deposited data

Results flagged for a closer look

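The genotype by time interaction of Clpx was 2.38 on the log2 scale. Its change between CT0 and CT12 differed between WT (-2.30) and KO (0.08), and because the gene was selected on this value it is given without a test.

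The interaction of Atf5 was 1.69 (95% interval 1.13 to 2.25, adjusted p = 0.00705, limma), a call lost without the filter on low values (adjusted p = 0.0572). Its change with time differed between WT (-1.58) and KO (0.10), with all 3 WT livers at CT12 below the other 9. Atf5 and Clpx were measured in the same libraries.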

How the results depend on the processing

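Counts of passing genes among the 9 other than Clpx stayed within 1.5 times the count reported in 117 cases and left that range in 9. Under quantile normalization 3 genes passed with time, averaged over genotypes and in WT, instead of 1 each. With unadjusted p from an unmoderated model, 1 passed between genotypes on average, 2 at CT0 and 3 at CT12, 3 for the interaction, 3 with time on average and 3 with time in WT. Leaving out 1 library gave 1 to 2 genes with time in WT, the 2 without the second WT library at CT12. The replicate block, with 1 gene with time in WT (Afg3l2) as without it, moved no count of the 9. The numbers share no animal, and deviations of same-numbered samples correlated at -0.066 to 0.14 on a mean of 0.0082. No sample correlated best with its own number in every other group. With the block, Cs between genotypes at CT12 no longer passed (adjusted p = 0.0625), and Alas1 between genotypes at CT12 did (0.024).

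Of 48 single differences followed, 4 with a test changed sign under some setting, none of them past the threshold. Clpx with time in KO, given without a test, ran from -0.064 to 0.167. Hspa9 with time in KO was 0.031 under quantile normalization and ran from -0.049 to 0.039 over the fits that left out 1 library, positive without the first KO library at CT0. Hspd1 with time in KO ran from -0.078 (without the second KO library at CT0) to 0.089, with -0.017 without the third at CT12. Spg7 between genotypes at CT12 was 0.04 as the mean over all rows, and ran from -0.117 to 0.024 over the fits that left out 1 library, with 0.004 without the first WT library and 0.024 without the second KO library at CT12. Atf5 with time in KO ran from -0.028 (without the second KO library at CT0) to 0.31. The causes were not tested. Spg7 had the fewest reads of the 10 genes, 156 to 272 per library.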
